A study of Homo sapiens with 4 samples.

Results

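The genes that code for inhibitors of cyclin-dependent kinases (CDKs) and for the pocket proteins were followed in Jurkat cells, an established line from acute T cell leukemia (T-ALL), by RNA-seq. The 10 genes were taken by symbol, CDKN1A, CDKN1B, CDKN1C, CDKN2A, CDKN2C, CDKN2D, CDKN3, RB1, RBL1 and RBL2, and all 10 were found among the 64252 gene IDs of the count table. Of the 4 libraries, 2 came from cells given a control hairpin of scrambled sequence (sh-Scb) and 2 from cells given a short hairpin RNA named for the transcription factor SOX4 (sh-SOX4). The design text of the series calls the cells transfected; a time after transfection, a hairpin sequence and a clone are not stated there. Nothing in the labels says that the libraries of a group came from separate cultures, so the p-values below measure only the spread between these libraries, which may be technical.

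A cell leaves G1 when cyclin D with CDK4 or CDK6, and then cyclin E with CDK2, phosphorylate the pocket proteins RB1 (pRB), RBL1 (p107) and RBL2 (p130). Unphosphorylated pocket proteins hold E2F transcription factors, and RBL1 and RBL2 do so as part of the DREAM complex with the MuvB proteins. INK4 inhibitors (CDKN2A, CDKN2C, CDKN2D) bind CDK4 and CDK6, while Cip/Kip inhibitors (CDKN1A, CDKN1B, CDKN1C) bind cyclin-CDK complexes more widely. Loss of the CDKN2A locus is among the most frequent lesions of T-ALL.

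The libraries summed to between 29093287 and 36636219 counts, so that 3 counts correspond to 0.0794 to 0.101 counts per 1e6 scaled counts (CPM). All 11 markers of T cells or of the Jurkat line, read as a check of the label, averaged at least 10 CPM. Their sum was 1824 to 1876 CPM in sh-Scb and 2287 to 2361 CPM in sh-SOX4. Not every marker rose with the sum. CD247 went from 97.4 and 87.5 CPM in sh-Scb to 73.1 and 73.6 CPM in sh-SOX4, and TRBC1 was at 65.2 and 142 CPM in the sh-SOX4 libraries. Of the markers of other cell types, LYZ, HBB and COL1A2 had 0 counts in every library. The 5 myeloid, 4 NK and 4 erythroid markers each averaged under 10 CPM. The 5 B cell markers, none of them at 0 in every library, summed to between 66.9 and 68.8 CPM in sh-Scb and between 15.05 and 16.7 CPM in sh-SOX4; most of it was CD79A, while CD79B went from 0.476 and 0.365 CPM to 2.11 and 0.907 CPM. The 5 epithelial or stromal markers, mostly COL1A1, summed to between 25.0 and 26.8 CPM in sh-Scb and between 17.9 and 18.3 CPM in sh-SOX4. The part of these differences in the results below was not tested, and in bulk RNA a smaller share of cells with a transcript and less of it per cell cannot be told apart. SOX4 itself was at 271 and 277 CPM under the control hairpin and at 191 and 199 CPM under its own, which left 71.1% of the control level (95% interval 66.4% to 76.1%).

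Stretches before a start of 3 members are shown because these members lead the results: RBL1 rose most, its relative RBL2 fell, and CDKN2D had the smallest adjusted p of those that fell. Each is the 250 bases before the annotated RefSeq start on GRCh38.p14, written in the direction of the gene. The gene spans given below, from GENCODE, reach further than these starts for RBL2, whose stretch lies wholly inside its span, and for CDKN2D, where 80 of the 250 bases do; RBL2 has a second RefSeq start, not shown. Capitals mark matches to TTTNNCGC, a loose form of the E2F site, on either strand.

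RBL1 (chr20:37095998-37096247, minus strand): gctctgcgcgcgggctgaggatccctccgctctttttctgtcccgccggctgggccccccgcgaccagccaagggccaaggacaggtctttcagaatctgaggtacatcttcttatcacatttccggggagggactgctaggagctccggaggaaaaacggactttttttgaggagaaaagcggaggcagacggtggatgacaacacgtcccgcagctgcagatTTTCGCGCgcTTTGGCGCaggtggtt

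RBL2 (chr16:53434221-53434470, plus strand): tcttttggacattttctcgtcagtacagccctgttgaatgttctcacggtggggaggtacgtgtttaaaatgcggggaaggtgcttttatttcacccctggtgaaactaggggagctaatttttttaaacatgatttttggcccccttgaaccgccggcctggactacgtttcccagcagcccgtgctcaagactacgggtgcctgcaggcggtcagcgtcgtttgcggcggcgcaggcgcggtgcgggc

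CDKN2D (chr19:10568980-10569229, minus strand): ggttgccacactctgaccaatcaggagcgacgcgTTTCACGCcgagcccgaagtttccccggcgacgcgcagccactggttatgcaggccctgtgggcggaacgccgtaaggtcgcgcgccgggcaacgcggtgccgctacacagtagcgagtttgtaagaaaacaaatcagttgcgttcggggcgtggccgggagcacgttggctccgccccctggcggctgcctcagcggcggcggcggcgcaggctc

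RBL1 held 2 matches, TTTCGCGC starting 26 bases and TTTGGCGC starting 16 bases before its start. CDKN2D held 1, TTTCACGC, 216 bases before its start, and these letters were not found in the RBL2 stretch. RefSeq windows of 300 bases, 250 before and 50 after a start, were held for 9 of the 10 members, in 13 windows. Many of these were at starts inside the gene spans given below, and CDKN1C had no window. The window of RB1 was at a start at 48476450, far inside a span that begins at 48303726. The bases before the RB1 span were therefore not read for any of the letters below. The E2F letters stood in 6.89% of all 35116 such windows, and among the members only in those of RBL1 and CDKN2D. TTTGAA, the core of the CHR element that MuvB binds, stood in 15.2% of all windows, and among the members in 1 window of CDKN3 and 1 of RBL2, the latter 24 bases after the start. The E-box CACGTG, bound by MYC, stood in 7.26% of all windows and in 2 windows of CDKN2C. The FOXO letters TGTTTAC (3.42% of windows) and the SOX letters AACAAAG (5.20%) were found in no member's window. No matches overlapped each other. They are letter matches, and say nothing of binding in these cells.

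Of the 9 members with enough counts to be tested, 6 fell in sh-SOX4, 2 rose and 1 did not pass. The fallers were all 5 measured CDK inhibitors, CDKN1A, CDKN1B, CDKN1C, CDKN2C and CDKN2D, and the pocket protein RBL2. RB1 and RBL1 rose, and CDKN3 was the member that did not pass. Calls are those of edgeR's quasi-likelihood test at a Benjamini-Hochberg adjusted p under 0.05 over all 19897 gene IDs tested. That test called 44.1% of all IDs, 23.2% higher and 20.9% lower, and 6 of 9 lower is to be read against the last. More abundant IDs were called more often. With a filter at 10 CPM in 2 libraries, 7149 of 10797 IDs (66.2%) were called, 3571 of them lower. Of the members, 7 were then called, 5 of them lower. The median log2 fold change of the 9 members was -0.26, against -0.01 for all tested IDs. In each of the 9 the libraries of the groups did not overlap, CDKN3 included, but the same held for 72.9% of all tested IDs.

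**Figure D1:**
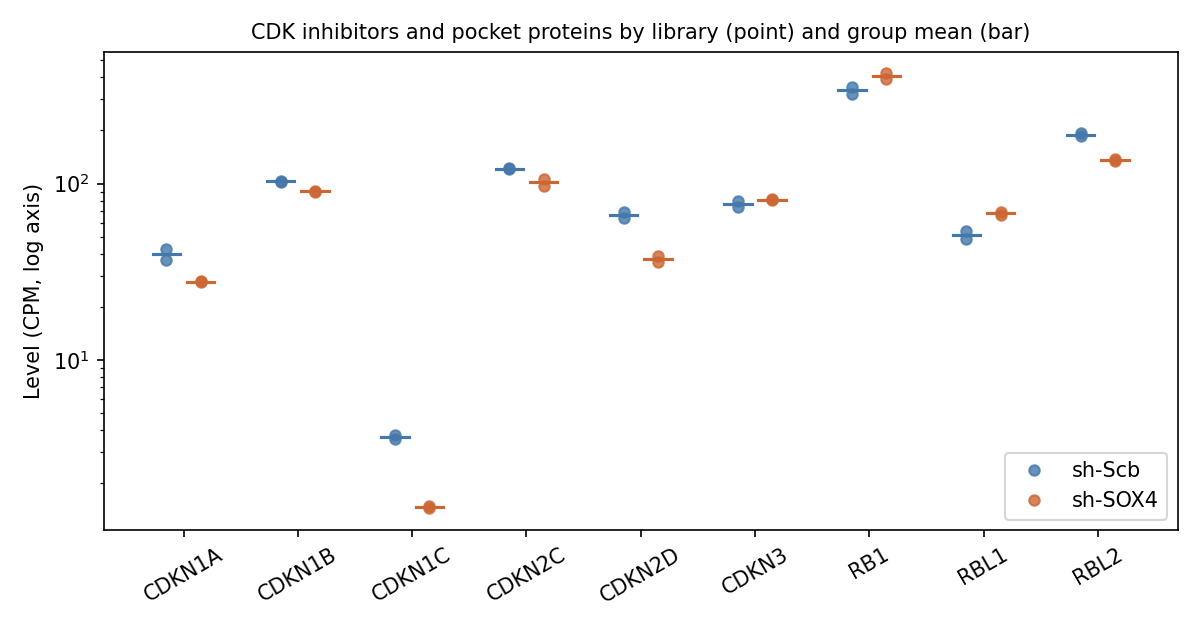
Level of each tested member in CPM (log axis), by gene on the horizontal axis. Points are libraries and bars are group means, with sh-Scb in blue and sh-SOX4 in orange. The sh-SOX4 points lie below the sh-Scb points for 6 genes and above them for CDKN3, RB1 and RBL1.

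Among the INK4 inhibitors, CDKN2D (p19INK4d; chromosome 19, 10566462 to 10569059 on GRCh38) fell furthest. It was at 69.3 and 64.0 CPM under the control hairpin and at 38.8 and 35.9 CPM under sh-SOX4. Both treated libraries were thus well under both controls. The log2 fold change was -0.84 (SE 0.073), leaving 56.0% of the control level (95% interval 50.05% to 62.7%), with an edgeR adjusted p of 1.04e-05. Of all tested IDs, 11.5% had a lower fold change.

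CDKN2C (p18INK4c; chromosome 1, 50960745 to 50974633) restrains the proliferation of T cell precursors in mice. It fell less, from 122 and 121 CPM to 97.2 and 106 CPM. The log2 fold change was -0.26 (SE 0.055) with an edgeR adjusted p of 0.00366. The sh-SOX4 libraries were further apart than the sh-Scb libraries, and the fold change ran from -0.19 without sh-SOX4 replicate 1 to -0.32 without sh-SOX4 replicate 2.

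CDKN2A, which codes for p16INK4a and p14ARF (chromosome 9, 21967753 to 21995301), had 0 counts in each of the 4 libraries. This limits its level to the 0.0794 to 0.101 CPM that 3 counts would give, and no change can be measured. Its neighbour CDKN2B, the gene of p15INK4b, and the antisense transcript CDKN2B-AS1 also had 0 counts throughout. Of the flanking genes, DMRTA1 was at 0, MTAP, a methionine salvage enzyme, had 3 to 6 counts per library, KLHL9 0 to 11 and ELAVL2 0 to 6. The nearest protein-coding genes that passed the filter were HACD4, 936117 bases to the left at 33.8 ± 0.929 CPM (SD, n = 2) in sh-Scb, and CAAP1, 4845384 bases to the right at 24.8 ± 3.97 CPM (SD, n = 2). Jurkat is known to lack CDKN2A; the counts alone do not show whether a gene is absent or silent.

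Of the Cip/Kip inhibitors, CDKN1A (p21; chromosome 6, 36676460 to 36687339), an inhibitor induced by many kinds of stress, was at 42.8 and 36.9 CPM in sh-Scb, against 27.6 and 27.98 CPM in sh-SOX4. The control libraries differed from each other by more than the treated libraries did, and both stood above the treated ones. The log2 fold change was -0.52 (SE 0.094), that is 69.7% of the control level (95% interval 60.3% to 80.6%), with an edgeR adjusted p of 0.00125. It was -0.41 without sh-Scb replicate 1 and -0.63 without sh-Scb replicate 2. A transcript on the opposite strand, DINOL, shares 4.79% of its exonic bases and was not used here.

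CDKN1B (p27; chromosome 12, 12715058 to 12722371) holds resting T cells out of the cycle. It was at 102 and 104 CPM in sh-Scb, against 91.3 and 89.4 CPM in sh-SOX4. This was the smallest called change of the 9, at -0.19 on the log2 scale (SE 0.050; edgeR adjusted p 0.0116). Without sh-SOX4 replicate 2 the adjusted p was 0.0689 and the call was lost, with a fold change of -0.17.

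CDKN1C (p57; chromosome 11, 2883213 to 2885773) is an imprinted gene, expressed from the maternal copy. It was the least abundant member with counts, with 142 and 107 counts under the control hairpin, against 47 and 43 under sh-SOX4. These are 3.76 and 3.55 CPM against 1.48 and 1.44 CPM. Its log2 fold change of -1.32 (SE 0.24) was the largest of the members in size, and its 95% interval of 27.6% to 58.3% of control the widest of those that fell, with an edgeR adjusted p of 0.00141. The nearest tested protein-coding genes on its sides were lower as well. SLC22A18, imprinted in the same domain and 13948 bases away, went from 7.45 ± 0.868 to 3.68 ± 1.02 CPM (SD, n = 2; edgeR adjusted p 0.00384). TRPM5, a cation channel gene 460168 bases away, went from 6.34 ± 1.22 to 0.165 ± 0.0994 CPM (SD, n = 2; edgeR adjusted p 2.74e-06).

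CDKN3, also called KAP, is a phosphatase that removes the activating phosphate of CDK2 and is made mainly in cycling cells (chromosome 14, 54396849 to 54420218). It was at 80.1 and 73.6 CPM in sh-Scb, against 80.7 and 81.7 CPM in sh-SOX4. The log2 fold change was 0.08 (SE 0.059), with a 95% interval of 96.4% to 116% of control and an edgeR adjusted p of 0.309. With scaling to library totals it was -0.020, so its direction was not settled.

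**Figure D2:**
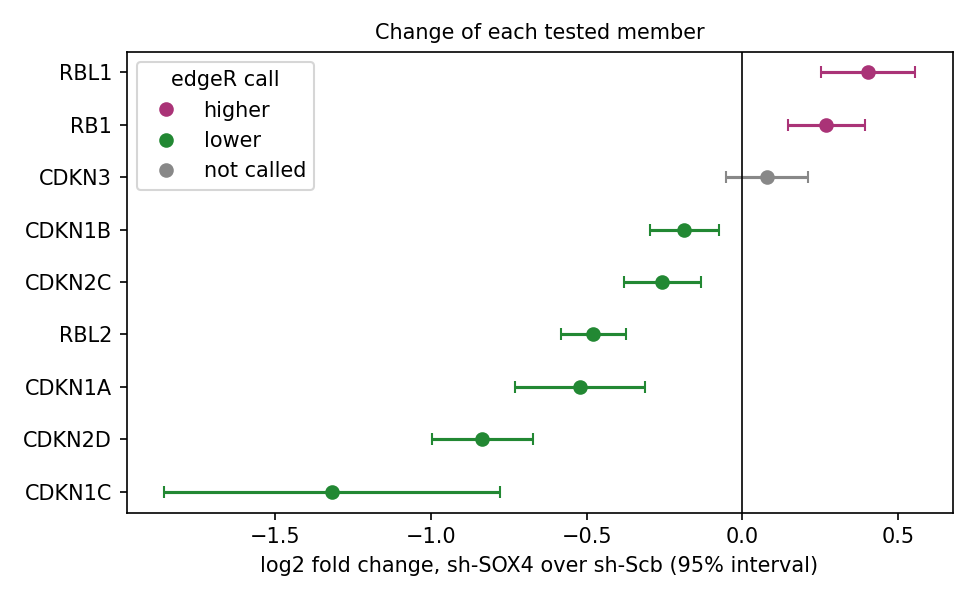
Log2 fold change of each tested member, sh-SOX4 over sh-Scb, on the horizontal axis, with the 95% interval of the model; colour gives the edgeR call. CDKN1C, at -1.32, has the lowest value and RBL1, at 0.40, the highest, and the interval of CDKN3 spans 0.

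The pocket proteins moved in different directions. RBL2 (p130; chromosome 16, 53433977 to 53491649), the pocket protein of resting cells, fell from 185 and 194 CPM to 135 and 137 CPM. Its log2 fold change was -0.48 (SE 0.047) with an edgeR adjusted p of 2.37e-05, close in size to the -0.49 of SOX4. Other genes share 18.2% of its exonic bases, all on the opposite strand: an unnamed transcript over 721 bases, with 9 to 32 counts per library, and AKTIP over 610 bases, with 476 to 816, where RBL2 had 4093 to 7005. RBL1 (p107; chromosome 20, 36996349 to 37095995), a gene known to be driven by E2F itself, rose from 48.8 and 53.7 CPM to 68.8 and 66.6 CPM, by 0.40 on the log2 scale (SE 0.067; edgeR adjusted p 0.000781).

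RB1 (chromosome 13, 48303726 to 48599436), the retinoblastoma tumour suppressor, was at 323 and 354 CPM in sh-Scb, against 422 and 394 CPM in sh-SOX4. The gap between the groups was only somewhat wider than that between the libraries of a group. The log2 fold change was 0.27 (SE 0.055) with an edgeR adjusted p of 0.00287. Scaling to library totals moved the median of all tested IDs from -0.01 to -0.11, and with it RB1 to 0.17 (edgeR adjusted p 0.0306) and RBL1 to 0.30 (edgeR adjusted p 0.00459). Under that scaling 3629 IDs were called higher and 5260 lower, 40.8% of calls higher in place of 52.5%.

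To set the members beside each other, levels were divided by the exonic length of each gene (CPM per kb). In sh-Scb the order ran from RB1 at 52.4 ± 3.40 CPM per kb (SD, n = 2) over CDKN2D at 44.3 ± 2.49, CDKN3 at 41.9 ± 2.53, CDKN2C at 36.6 ± 0.355, CDKN1B at 36.6 ± 0.414 and RBL2 at 25.9 ± 0.861 to CDKN1A at 13.1 ± 1.37, RBL1 at 8.60 ± 0.580 and CDKN1C at 1.47 ± 0.0580 (SD, n = 2). Libraries of CDKN2D and CDKN3 overlapped, as did those of CDKN2C and CDKN1B, and the other neighbours in this order stood apart. In sh-SOX4, CDKN2D dropped from the second place to the fifth, at 24.8 ± 1.34 CPM per kb (SD, n = 2), behind CDKN3, CDKN1B and CDKN2C. RBL1, at 11.4 ± 0.267 CPM per kb, passed CDKN1A, at 9.11 ± 0.0912 CPM per kb (SD, n = 2). Only CDKN1B and CDKN2C overlapped there. The length is that of all annotated exons together, so a gene whose long exons are little used has too low a value.

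**Figure D3:**
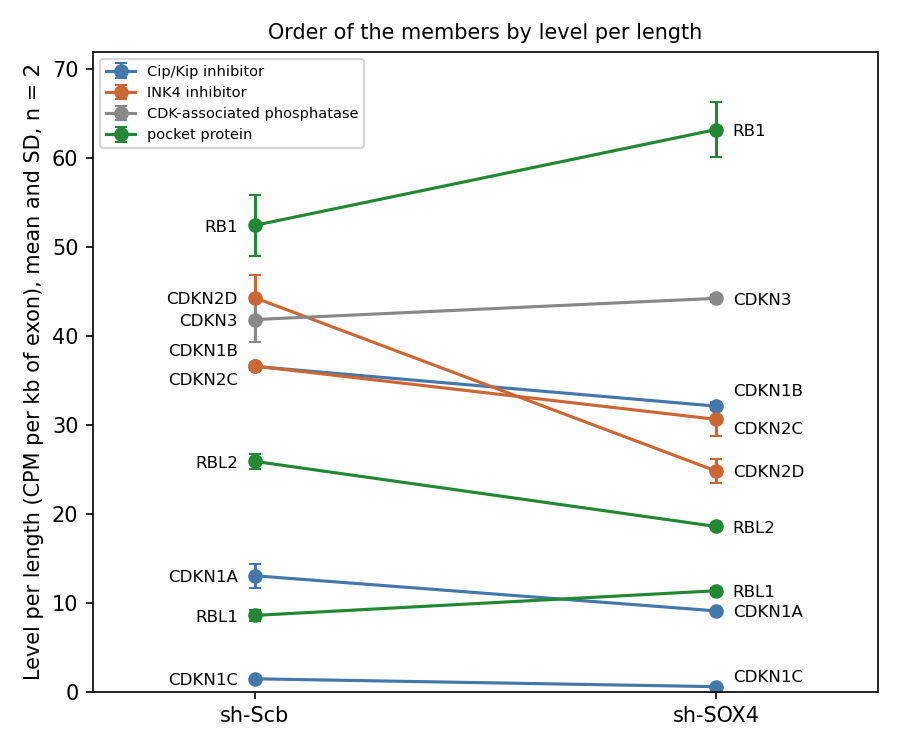
Mean level per length (CPM per kb of exon, vertical axis from 0) of the 9 members in sh-Scb and sh-SOX4, with SD over 2 libraries as bars; colour gives the class. CDKN2D crosses below CDKN3, CDKN1B and CDKN2C, and RBL1 crosses above CDKN1A.

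Summed per class, the INK4 level per length was 83.0 and 79.0 CPM per kb under the control hairpin, against 55.1 and 55.9 under sh-SOX4. The Cip/Kip sum was 51.8 and 50.4 CPM per kb in sh-Scb, against 42.1 and 41.5 in sh-SOX4. Neither sum overlapped between groups, which also held for 72.9% of single tested IDs. The pocket protein sum was 83.5 and 90.4 CPM per kb in sh-Scb, against 95.4 and 91.0 in sh-SOX4. This sum did not overlap either, but the nearest libraries of the groups were closer than the libraries within each group. An exact two-sided permutation test gave p = 0.333 for each of the 3 sums, the smallest value that 2 libraries against 2 allow.

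Ratios of 2 members within a library do not depend on scaling between libraries. RBL1 stood to RBL2, per length, at 0.324 and 0.340 under the control hairpin, against 0.628 and 0.595 under sh-SOX4. RB1 stood to RBL2 at 1.98 and 2.07 in sh-Scb, against 3.55 and 3.25 in sh-SOX4. Per length, RBL2 was lower relative to RBL1 and to RB1 in both sh-SOX4 libraries than in both sh-Scb libraries. These ratios restate the changes of the single genes and are not separate support. CDKN2D stood to CDKN2C at 1.25 and 1.17 in sh-Scb, against 0.880 and 0.747 in sh-SOX4. CDKN1A stood to CDKN1B at 0.387 and 0.328 in sh-Scb, against 0.279 and 0.289 in sh-SOX4. All 4 ratios were chosen after the values were seen, and each had an exact permutation p of 0.333. None overlapped between groups, which also held for 72.9% of single tested IDs. The share among ratios of other gene pairs was not computed.

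**Figure D4:**
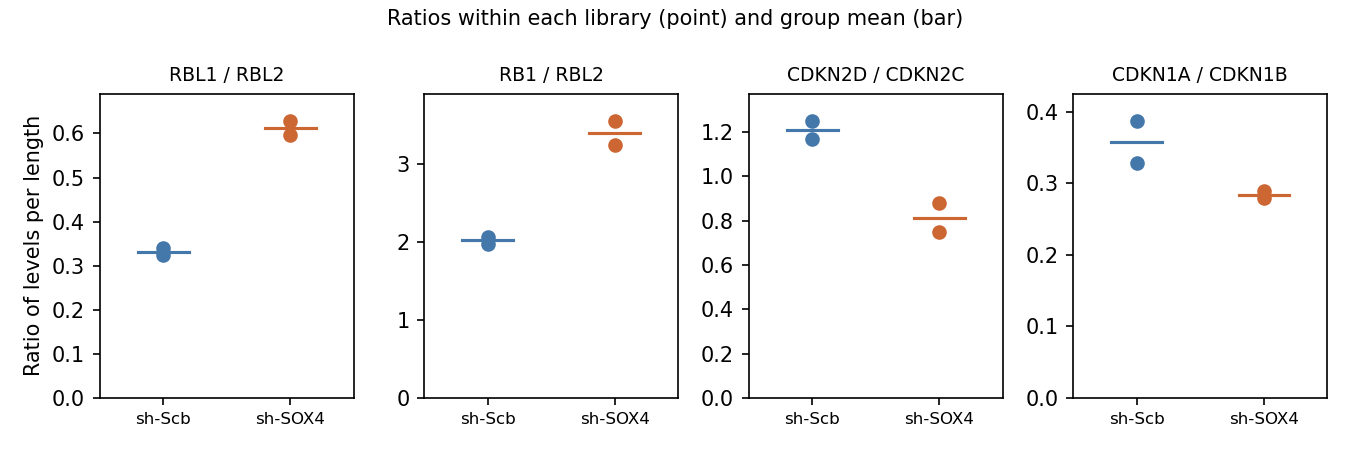
Ratio of the levels per length of 2 members within each library, with a panel per pair and each vertical axis starting at 0. Points are libraries and bars are group means; the RBL1 to RBL2 ratio lies at 0.324 and 0.340 in sh-Scb, against 0.628 and 0.595 in sh-SOX4.

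The kinases and cyclins that the inhibitors bind went both ways, with 5 of 14 called higher and 3 lower, a median log2 fold change of -0.11, where the test called 44.1% of all IDs. CDK6, a cyclin D kinase, rose from 565 and 616 CPM to 949 and 906 CPM. CDK7, which activates other CDKs, had a log2 fold change of 0.56 (SE 0.15) and its partner MNAT1 of 0.29 (SE 0.084), both called. Without sh-Scb replicate 2, CDK7 was at 0.36 (edgeR adjusted p 0.0541), and MNAT1 was not called without sh-Scb replicate 1 (0.25, edgeR adjusted p 0.0564) or sh-SOX4 replicate 1 (0.23, edgeR adjusted p 0.111). Those that fell were CCNE2, a cyclin E, with a log2 fold change of -1.09 (SE 0.068), CDK1, the mitotic kinase, with -0.46 (SE 0.049), and CDK2 with -0.42 (SE 0.049). Other genes share 37.1% of the exonic bases of CCNE2 and 16.8% of those of CDK2. CCND3 did not pass, at 267 CPM in sh-Scb and 248 CPM in sh-SOX4.

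Of 10 E2F and DP genes, some of which code for factors that pocket proteins hold, 4 rose and 4 fell, a median of -0.08. The share called was 80.0%, against 44.1% of all IDs and 66.2% of those with at least 10 CPM in 2 libraries. TFDP1, the main DP partner, rose from 168 and 174 CPM to 298 and 297 CPM. E2F6, a repressor that binds no pocket protein, and E2F4, the usual partner of RBL1 and RBL2, had log2 fold changes of 0.45 (SE 0.081) and 0.42 (SE 0.064). For E2F6, 4 pseudogene copies are annotated, so its reads could have been split. The atypical repressors E2F7 and E2F8 fell by 0.96 (SE 0.056) and 0.68 (SE 0.072) on the log2 scale, and the activator E2F2 fell by 0.62 (SE 0.053). TFDP2 did not pass, and its sh-SOX4 libraries differed from each other, at 119 and 52.3 CPM; without sh-SOX4 replicate 1 it was called lower, at -0.99 (edgeR adjusted p 2.23e-05).

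In the MuvB list, the core of DREAM with its later partners, 3 of 8 genes were called higher and 1 lower, a median of 0.04. MYBL2 and FOXM1, which bind MuvB once pocket proteins leave it, rose by 0.30 (SE 0.048) and 0.24 (SE 0.050) on the log2 scale. DYRK1A, the kinase that favours DREAM assembly, at 0.12, and the subunit LIN54, at -0.21, were close to the threshold, with edgeR adjusted p-values of 0.0486 and 0.0450. DESeq2, limma-voom, the fit without a filter and the fit with a replicate block each called 2 of these genes, as did leaving out sh-Scb replicate 2 or sh-SOX4 replicate 2, where DYRK1A and LIN54 were lost.

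Of 12 genes of the ligases that degrade p27 and p21, 5 rose and 2 fell, with a median of 0.13. This was 58.3% called, between the 44.1% of all IDs and the 66.2% of those with at least 10 CPM in 2 libraries. CUL1, the scaffold of the SCF ligase that takes up p27, rose from 74.0 and 76.2 CPM to 126 and 124 CPM. COPS5, a subunit of the signalosome that also binds p27, rose by 0.67 (SE 0.063) on the log2 scale and DDB1, an adaptor of the CUL4 ligases, by 0.47 (SE 0.046). DTL, which brings p21 to CUL4, fell from 217 and 231 CPM to 157 and 148 CPM, and CKS1B, a cofactor of p27 uptake with 6 annotated pseudogene copies, fell by 0.18 (SE 0.055). The call of CKS1B was lost without sh-Scb replicate 1 (-0.15, edgeR adjusted p 0.0750) and without sh-SOX4 replicate 1 (-0.13, edgeR adjusted p 0.166). SKP2, the receptor for p27, did not pass, at -0.14 on the log2 scale (edgeR adjusted p 0.0723), and was called lower without sh-Scb replicate 1 (-0.18, edgeR adjusted p 0.0316).

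**Figure D5:**
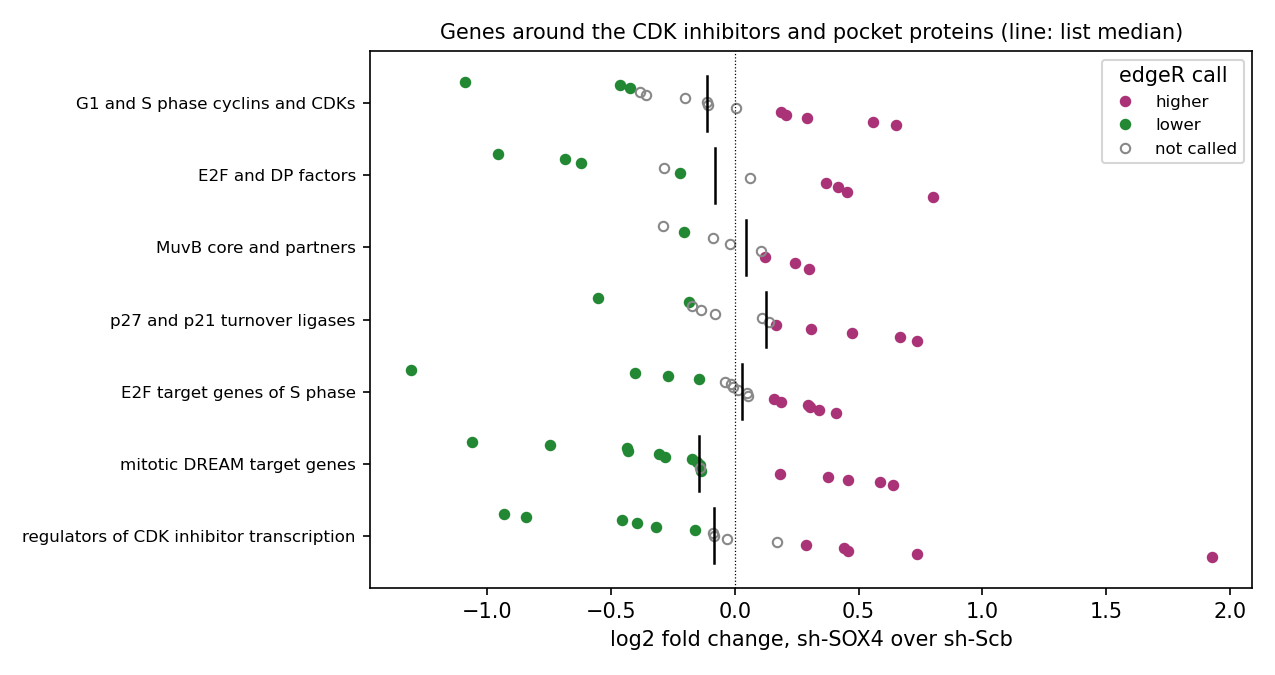
Log2 fold change, sh-SOX4 over sh-Scb, of every tested gene of 7 lists around the members (rows). Filled points passed the edgeR test, open points did not, and the vertical line of each row is the list median. Every row holds called genes on both sides of 0, and MYC, at 1.93, is the highest point.

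Genes that E2F drives in S phase were called higher in 6 and lower in 4 of 16, a median of 0.03. Their share of calls was 62.5%, beside 44.1% of all IDs and 66.2% of those with at least 10 CPM in 2 libraries. MCM5 and MCM3, parts of the replicative helicase, rose by 0.41 (SE 0.047) and 0.34 (SE 0.046) on the log2 scale. TK1, thymidine kinase, fell from 28.7 and 28.4 CPM to 11.4 and 11.7 CPM, and the replication licensing genes CDT1 and CDC6 fell by 0.40 (SE 0.064) and 0.27 (SE 0.053) on the log2 scale. RRM2, TYMS and PCNA, classic E2F targets, had log2 fold changes of -0.01, -0.01 and -0.04 and did not pass; 46.6% of the exonic bases of TYMS and 20.2% of those of RRM2 are shared.

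Mitotic genes known as DREAM targets were called in 15 of 16, with 5 higher and 10 lower and a median of -0.15. Among IDs with at least 10 CPM in 2 libraries, 66.2% were called, and leaving out sh-SOX4 replicate 1 or 2 left 10 or 11 of the 16. CDC25C, the phosphatase that activates CDK1, fell from 48.9 and 42.5 CPM to 20.7 and 23.2 CPM. NUSAP1, with 62.2% of its exonic bases shared, and the checkpoint kinase TTK fell by 0.74 (SE 0.043) and 0.43 (SE 0.050). CDC20, CCNB1 and AURKA, all active in mitosis, rose by 0.64 (SE 0.047), 0.59 (SE 0.043) and 0.46 (SE 0.049). The member of the list that did not pass was BIRC5, at -0.14, which was called without sh-Scb replicate 2 (-0.26, edgeR adjusted p 0.000240).

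Among 15 factors known to act on transcription of CDK inhibitors, 5 rose and 6 fell, with a median of -0.08. Here 73.3% were called, where 44.1% of all IDs and 66.2% of those with at least 10 CPM in 2 libraries were. MYC, which with ZBTB17 represses CDKN1A, rose from 49.2 and 52.1 CPM to 192 and 194 CPM. TFAP4, another repressor of CDKN1A and itself a MYC target, rose from 9.95 and 9.89 CPM to 15.7 and 17.4 CPM. SMAD3 and SMAD4, through which TGF-beta raises CDK inhibitors, fell by 0.93 (SE 0.083) and 0.46 (SE 0.056), and the repressor GFI1 fell by 0.84 (SE 0.087). FOXO1, FOXO3 and FOXO4, activators of CDKN1B, had log2 fold changes of -0.09, -0.08 and -0.03 and did not pass.

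The split of these lists moved with the scaling, which lowers every fold change by about the same amount. With library totals, 2 of the cyclins and CDKs were called higher and 5 lower, 2 and 2 of the MuvB list, 4 and 5 of the ligase genes, 4 and 6 of the S phase genes, 4 and 11 of the mitotic genes and 5 and 7 of the regulators, while the E2F and DP list kept 4 and 4. The medians of the MuvB list and the S phase list then changed sign, to -0.06 and -0.07. Of the genes named above, MNAT1 and DYRK1A were no longer called higher, with edgeR adjusted p-values of 0.0937 and 0.717. CCND3, SKP2, PCNA, RRM2, BIRC5 and FOXO3 were then called lower, with log2 fold changes of -0.21, -0.23, -0.14, -0.11, -0.24 and -0.18.

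The nearest tested protein-coding gene wholly outside each of the 9 measured members was read on each side to place each change in its surroundings. This comparison was added after the values were seen. Genes that overlap a member, such as AKTIP with RBL2, were not taken as neighbours. Of these 18 neighbours, 6 were higher, 5 lower and 7 not called, where the test called 44.1% of all IDs. KRI1, 425 bases from CDKN2D, rose by 0.33 (SE 0.054) while CDKN2D fell, and SLC44A2 on the other side, 33398 bases away, fell by 0.87 (SE 0.066). FAF1, 482 bases from CDKN2C, rose by 0.50 (SE 0.052) while CDKN2C fell. SAMHD1, a dNTP hydrolase gene 44448 bases from RBL1, rose by 1.49 (SE 0.35) on the log2 scale from a low level. MROH8, 5231 bases from RBL1 on its other side, was also low and was not called, at -0.61 (SE 0.38).

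The genes nearest in pattern were sought over the 4 libraries among 11645 genes with a symbol and a mean log2 CPM of at least 2, by the root mean square difference of log2 CPM centred on each gene. For CDKN2D these were RNASET2, ZNF699 and RAB3B, at 0.017, 0.019 and 0.023, with log2 fold changes of -0.87, -0.81 and -0.82. For RBL1 they were CHST10, ZNF407 and IPO7, at 0.011, 0.012 and 0.015, with log2 fold changes of 0.39, 0.41 and 0.41. With 4 libraries in 2 groups, many genes have such a pattern.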

How the data were processed

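The authors deposited whole-number counts per Ensembl gene ID, not normalized, for 4 libraries. HISAT2 2.2.0 and StringTie appear in the submitters' processing notes, with hg38 as the build. What each tool did, which annotation was counted and whether strand was used are not given in sources used here; where genes overlap, on either strand, their reads may be mixed. The labels' protocols give TRIzol extraction and an Illumina TruSeq RNA kit. Control columns are named NC and were taken as sh-Scb because the other columns name SOX4 and the replicate numbers match.

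With edgeR 4.0.16 in R 4.3.3, IDs were kept by filterByExpr (at least 10 counts, total of at least 15), TMM factors were computed and a robust quasi-likelihood model was fitted, with p-values adjusted by the Benjamini-Hochberg method over 19897 IDs. CPM are TMM-scaled. The SE is the size of the log2 fold change divided by the square root of F, and 95% intervals come from the model; floors of 3 counts cover counting error only. CDKN2A, with 0 counts, was the member that did not pass the filter. Symbols came from a gene name table, which matched 56105 IDs, and positions, exon lengths and overlaps from GENCODE release 29 on GRCh38. The median chi-square per gene between libraries of a group was 1.71 and 1.60, against 0.455 for sampling alone, so all were kept as separate. Alternatives used limma 3.58.1 (voom) and DESeq2 1.42.0. The pipeline was run on simulated counts in which few genes were changed, with directions drawn at random and the same dispersion for every gene. Because so many IDs were called in the real data, that run cannot speak to their scaling. Figures were drawn with matplotlib 3.10.9.

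The members and gene lists were chosen with earlier results of these data known. Named genes were the members, SOX4, up to 3 called genes in each direction with the largest change of each list, and the 3 nearest patterns; others were named after their values were seen. A few genes that the rule or the marker lists include are not reported here.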

Additional observations from a re-analysis of the deposited data

How the results depend on the processing

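Over 11 alternatives (a replicate block, DESeq2, limma-voom, median-ratio factors, scaling to library totals, all IDs unfiltered, a filter at 10 CPM in 2 libraries, and each library left out), 96 of 98 values of single members kept their direction and their side of the threshold. The exceptions were CDKN1B without sh-SOX4 replicate 2, with an edgeR adjusted p of 0.0689, and CDKN3, at -0.020 with library totals. CDKN1C was too low for the filter at 10 CPM. Of the members, 8 were called under each other setting except that filter and the fit without sh-SOX4 replicate 2, with 7 each. With library totals, the log2 ratio of summed levels was -0.39 for Cip/Kip, -0.64 for INK4 and 0.00084 for pocket proteins, in place of -0.29, -0.55 and 0.10, since that scaling lowers every value by the same amount. The pocket protein value also depended on single libraries: it was 0.044 or 0.16 when sh-Scb replicate 1 or 2 was left out, and 0.065 or 0.13 when sh-SOX4 replicate 1 or 2 was. Calls over all genes ranged from 7149 to 8889 under the alternatives, of which leaving out a library gave 7467 to 8294. The labels give the groups the same replicate numbers, but nothing says that a number marks a shared culture or day, and deviations of same-numbered libraries had a correlation of -0.010 across genes. The replicate block called 8378 IDs and the same number of members, 8. With 2 libraries a group and 2 residual degrees of freedom per gene, small changes such as that of CDKN1B cannot be placed firmly. The edgeR tests and intervals also draw on the spread between libraries of other genes, and so rest on more degrees of freedom than these.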
